A study of Mus musculus with 6 samples.

Results

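The Hox genes encode homeodomain transcription factors and lie in 4 clusters of the mouse genome, Hoxa on chromosome 6, Hoxb on chromosome 11, Hoxc on chromosome 15 and Hoxd on chromosome 2. Every gene symbol made of Hox, a cluster letter and a paralogue number was taken from the RefSeq accessions of the array's probes, which gave 39 genes measured by 44 probes, of 21368 genes named on the array. Hoxa held 11 of them, Hoxb 10, Hoxc 9 and Hoxd 9. Expression was measured in tail epidermis of wild type C57BL/6 mice, with 3 young samples taken at 8 weeks and 3 aged samples, of which replicate 1 was taken at 22 months and replicates 2 and 3 at 25 months. All 6 tail skins were placed in EDTA to lift the epidermis off the dermis, and total RNA was turned into amplified cDNA, which carried Cy3 and went onto 1 array per sample. The comparison asked which of these genes differ between aged and young epidermis. The labels do not give sex and do not say that each sample came from its own animal. Replicate 1 of each group gave Y-linked signal that replicates 2 and 3 lacked, so each group drew on more than 1 animal. Whether replicates 2 and 3 of a group came from separate animals is not stated, so part of the spread behind the p-values may be technical.

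Hox genes set regional identity along the body axis of the embryo. Their order on the chromosome follows the order of their expression along the body, with genes of low paralogue number used towards the head and those of high number towards the trunk's end and the tail, a rule called collinearity. Adult skin keeps part of this regional code, in fibroblasts above all, and Hoxc13 is also known for its role in hair, nail and tail epidermis. Genes of the same number in different clusters descend from a shared ancestral gene and can often replace each other. In what follows the paralogues 1 to 3 are called anterior, 4 to 8 central and 9 to 13 posterior.

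The regions upstream of transcription start sites are shown for the posterior genes Hoxd11, Hoxd10 and Hoxa11. Their aged values all lay below the young ones, for Hoxd11 by the brighter of its probes only. Hoxd11 is shown at both starts that RefSeq lists, because its probes disagreed. Each sequence is the 250 bases before the start, 5′ to 3′ on the gene's strand, from RefSeq on the GRCm38.p6 assembly. Capitals mark matches, on either strand, to 4 short motifs, namely TGATNNAT (bound by PBX and HOX proteins together), TTTATG (favoured by posterior HOX proteins), TAATTA (a common homeodomain motif) and AGGTCA (the core of a retinoic acid receptor site).

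Hoxd11, upstream start, chr2:74679308-74679557, plus strand: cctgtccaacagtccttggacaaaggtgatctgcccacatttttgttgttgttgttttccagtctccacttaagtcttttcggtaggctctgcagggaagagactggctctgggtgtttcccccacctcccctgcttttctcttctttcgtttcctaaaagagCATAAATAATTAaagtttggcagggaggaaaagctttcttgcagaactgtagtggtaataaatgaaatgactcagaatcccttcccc
Hoxd11, downstream start, chr2:74682073-74682322, plus strand: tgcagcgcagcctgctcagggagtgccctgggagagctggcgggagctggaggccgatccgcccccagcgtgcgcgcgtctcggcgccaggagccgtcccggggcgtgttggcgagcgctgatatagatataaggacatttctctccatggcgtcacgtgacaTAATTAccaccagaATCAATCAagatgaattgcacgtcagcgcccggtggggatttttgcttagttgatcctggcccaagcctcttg
Hoxd10, chr2:74691641-74691890, plus strand: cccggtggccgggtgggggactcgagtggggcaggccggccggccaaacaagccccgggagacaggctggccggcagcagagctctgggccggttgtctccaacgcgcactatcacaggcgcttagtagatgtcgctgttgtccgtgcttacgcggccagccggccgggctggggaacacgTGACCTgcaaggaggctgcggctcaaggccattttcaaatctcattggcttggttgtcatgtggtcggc
Hoxa11, chr6:52245811-52246060, minus strand: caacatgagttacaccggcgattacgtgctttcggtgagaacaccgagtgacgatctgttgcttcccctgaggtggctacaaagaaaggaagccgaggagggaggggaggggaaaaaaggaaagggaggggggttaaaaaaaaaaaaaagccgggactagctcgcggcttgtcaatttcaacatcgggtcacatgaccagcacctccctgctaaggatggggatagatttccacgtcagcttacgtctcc

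The windows of Hoxd11 differed in composition, with a GC content of 44.8% and 2 CpG dinucleotides before its upstream start against 60.4% and 20 before its downstream start. Before the upstream start the run in capitals joins a TTTATG match on the opposite strand, read as CATAAA, and a TAATTA match that follows it directly. Before the downstream start stand TAATTA and, on the opposite strand, the PBX-HOX motif. Hoxd10 held 1 AGGTCA match and Hoxa11 none of the 4 motifs. The table held 24 windows for 22 of the 39 Hox genes. Of these, 4 held TGATNNAT, 5 TTTATG, 2 TAATTA and 6 AGGTCA, while 7.68%, 10.8%, 4.84% and 14.0% of all 32851 windows of this length held them. Median GC content was 58.6% in the Hox windows and 52.4% over all windows, and the median number of CpG dinucleotides was 12.5 and 6. These matches describe letters in these windows and are not binding sites.

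The arrays were alike in quality. The 75th percentile of the signal lay between 230.2 and 300.3 intensity units, 50.02% to 54.38% of 55681 probes were well above background, the scanner's own call for detection, and 0 spots were saturated. Precision is limited by the small number of arrays. Markers of the labelled tissue were strong, with the basal keratin Krt14 between 7.55 and 8.05 on all arrays. Values here and below are log2 signal relative to the array's 75th percentile, and they are compared within a probe only, since probes differ in sensitivity. Aged replicate 1 stood apart from the other aged arrays in age, and Ddx3y and Eif2s3y, which are Y-linked, were detected in both samples numbered 1 and on none of the other 4 arrays. Of 29 Hox genes recomputed without aged replicate 1, the difference shrank by more than 1.5 times in Hoxa7, Hoxb2, Hoxc5, Hoxc6, Hoxc9, Hoxc13 and Hoxd4, and for these that value is given too. Hair shaft and inner root sheath markers also differed, all 14 of 14 tested lower in aged epidermis with a median difference of -3.44. Their median deviation from the young mean was 0.25, -0.43 and 0.04 on young replicates 1 to 3 and -0.77, -3.17 and -6.10 on aged replicates 1 to 3. In a bulk sample, fewer cells of a type and less RNA per cell cannot be told apart.

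Adult tail epidermis held transcripts of most Hox genes. Of 39 genes, 28 were well above background on all 6 arrays, 6 on some and 5 on none. Detection spanned the whole code, from Hoxb2, which acts in the embryonic hindbrain, to Hoxc13. On all 3 young arrays 32 genes were detected and on all 3 aged arrays 28. The number detected on all 6 arrays was 8 of 11 in Hoxa, 8 of 10 in Hoxb, 7 of 9 in Hoxc and 5 of 9 in Hoxd. The share was highest among central genes, with 14 of 15, against 10 of 16 posterior and 4 of 8 anterior genes. A probe that is not detected gives only an upper limit for its gene.

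**Figure D1:**
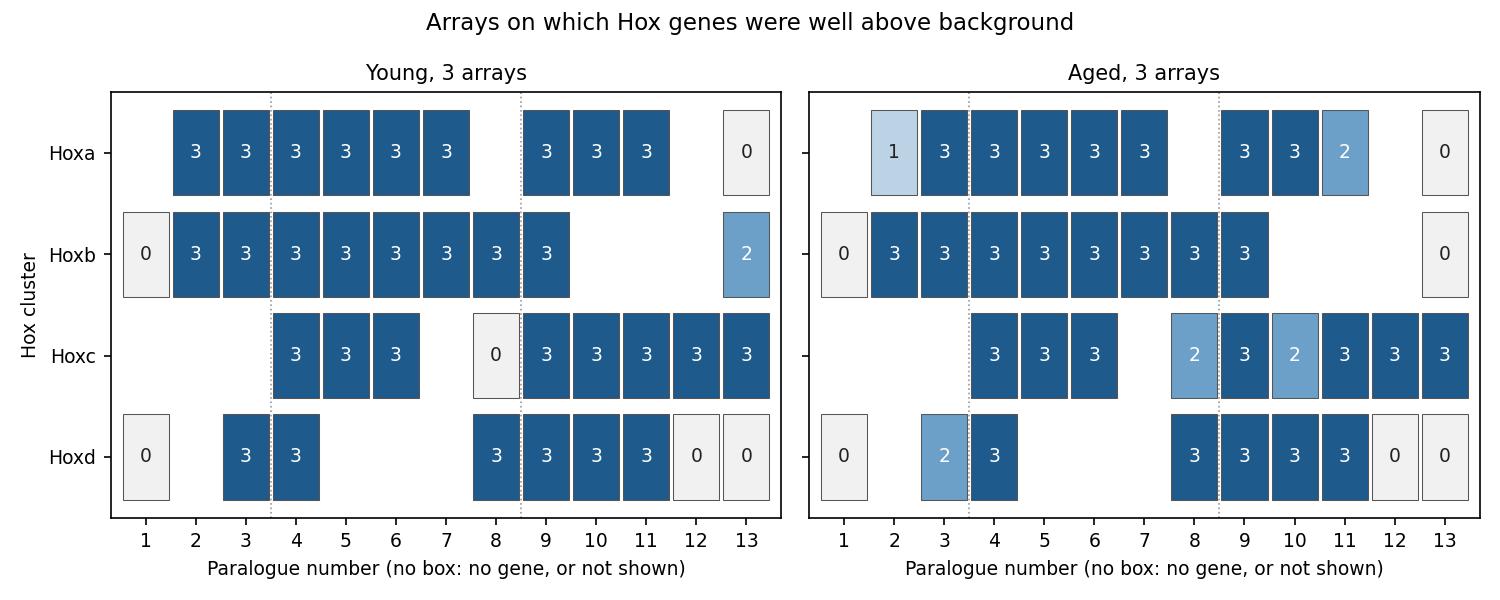
Number of arrays, of 3 young (left) and 3 aged (right), on which each Hox gene shown was well above background, by cluster (rows) and paralogue number (columns). Darker boxes mark more arrays, and dotted lines part the anterior, central and posterior genes. The central genes are filled in all clusters except Hoxc8, while Hoxb1, Hoxd1, Hoxa13, Hoxd12 and Hoxd13 stand at 0 in both panels.

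The 5 genes detected nowhere lay at the ends of the code. Hoxb1, which specifies facial motor neurons, and Hoxd1, known in mice from pain-sensing neurons, are anterior. Hoxa13, Hoxd12 and Hoxd13 pattern the digits and the genital region of the embryo. For Hoxa13 both probes were undetected on all arrays. The array carried 10 spots of the Hoxb1 probe, and of those kept after removal of outlier spots 0 were detected on each array. Detection differed between the probes of group 13 genes, with Hoxc13 detected on 6 of 6 arrays, Hoxb13 on 2, and Hoxa13 and Hoxd13 on 0. Since probes differ in sensitivity, these counts do not rank the genes.

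Hoxc13, required for hair shaft and nail formation, read 3.53, 4.04 and 4.16 on young replicates 1 to 3 and 3.05, 3.45 and 4.06 on aged replicates 1 to 3. The groups overlapped, and the difference was -0.39 ± 0.30 (aged minus young, SE, n = 3 arrays per group, limma adjusted p = 0.513). It ran from -0.16 without aged replicate 1 to -0.66 without aged replicate 3. Between samples of the same number Hoxc13 was lower in aged epidermis in 3 of 3 pairs, and a fit blocked on that number gave a limma adjusted p of 0.258. Aged replicate 3 had the highest Hoxc13 value of the aged group and the lowest hair marker values. Genes reported elsewhere as targets of Hoxc13 in mouse or human hair share most of their members with the hair marker list. Of 10 tested, 9 were lower and 1 higher, 5 and 1 of them at an unadjusted p under 0.05 and 0 past the threshold. At that p 6.3% of all genes were lower and 11.4% higher. The median difference of the targets was -3.44. Padi3, an enzyme that modifies hair shaft proteins, read 4.46, 3.89 and 4.27 in young and 2.79, 0.25 and -2.59 in aged epidermis, a difference of -4.06 ± 1.26 (limma adjusted p = 0.205). The hair keratins Krt81 and Krt35 differed by -2.76 and -3.95 (adjusted p = 0.217 and 0.233). Krt31, Krt33a, Krt33b, Krt35, Krt81, Krt86 and Padi3 stand in both lists, so the likeness of the lists was fixed in advance. The members outside the hair marker list, Foxn1, Krt32 and Foxq1, differed by -0.33, -0.29 and 0.44.

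Hoxb13, whose loss in mice lengthens the tail, lay at the limit of detection. It read -4.32, -4.36 and -4.22 on the young arrays, 2 of which counted as detected, and -6.59, -6.65 and -6.44 on the aged arrays, none detected. The groups stood apart. Not every young array counted as detected, so no bound on the fold is given. It was detected on too few arrays to be tested. In a fit that also admitted probes detected on 1 array it passed the threshold, but it entered that fit through its young arrays alone. Its aged values there are background, so no p-value is given. Hoxc8, which acts in forelimb motor neurons, went the other way in detection, with 0 young and 2 aged arrays detected. It read -5.05, -4.76 and -5.93 in young and -4.60, -4.34 and -5.24 in aged epidermis. The Hoxc8 groups overlapped, so no bound is given.

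Of the 39 genes, 32 were detected on at least 3 arrays and tested, and 0 passed the threshold of an adjusted p under 0.05 (limma, adjusted over all 25068 features), where 0.0778% of the 14136 genes tested passed. Aged means were lower for 21 and higher for 11. The median difference was -0.15 over the Hox genes and 0.09 over all genes tested, of which 5140 were lower and 8996 higher. At an unadjusted p under 0.05 there were 8 Hox genes lower and 5 higher, or 40.6% of those tested, against 6.3% of all genes lower and 11.4% higher. The 3 aged values lay wholly below the young values for 9 Hox genes and wholly above for 7, against 7.48% and 19.5% of all genes. With the replicate number as a block, 10 Hox genes were lower and 3 higher at an unadjusted p under 0.05, where the shares of all genes were 7.63% and 11.5%, and 0 passed the threshold. With 3 arrays a group an exact permutation test cannot give a p under 0.1, so none was run.

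**Figure D2:**
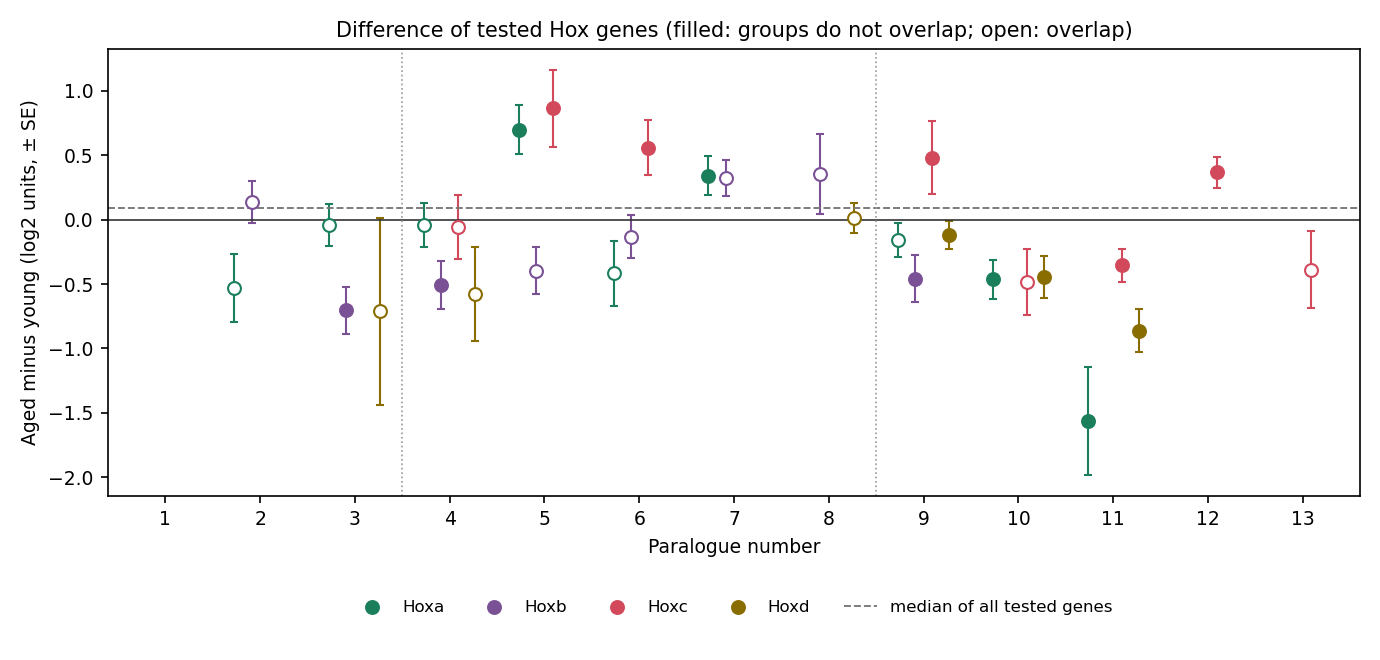
Difference between aged and young means (log2 units, bars ± SE, n = 3 arrays per group) for tested Hox genes by paralogue number, coloured by cluster. Filled points mark genes whose 3 aged values do not overlap the 3 young values, and the dashed line at 0.09 is the median of all tested genes. Of 12 posterior genes 10 lie below 0, Hoxd11 by its brighter probe, while central genes are split 7 and 7.

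Posterior genes were mostly lower in aged epidermis. Of 12 tested, 10 were lower and 2 higher, 6 and 1 of them at an unadjusted p under 0.05, and the groups did not overlap for 7 and 2. Among all genes 6.3% were lower and 11.4% higher at that p, and 7.48% and 19.5% without overlap. The median difference of the posterior genes was -0.42. Without Hoxd11, a count chosen after seeing that its probes disagreed, 9 were lower and 2 higher, 5 and 1 at an unadjusted p under 0.05, the groups did not overlap for 6 and 2, and the median was -0.39. Central genes were evenly divided, with 7 of 14 lower and 7 higher and a median of -0.01. Of the 6 tested anterior genes 4 were lower and 2 higher, with a median of -0.29. Every tested gene of groups 10 and 11, 3 in each, had a lower aged mean, as did all 4 genes of group 4. Hoxd11 counts here by the brighter of its probes, and the other one was higher by 0.18. Both tested genes of group 7 had a higher aged mean. The median deviation of posterior genes from their young means was -0.04, 0.12 and -0.00 on young replicates 1 to 3 and -0.19, -0.43 and -0.36 on aged replicates 1 to 3. All 3 aged arrays lay below all 3 young arrays in this median. The difference between posterior and central genes was not tested.

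The group 11 genes, which pattern the forearm and kidney, were all lower without overlap in the probes tested, with Hoxd11 measured by its brighter probe. Hoxd11 read 3.27, 3.81 and 3.54 in young and 2.64, 2.57 and 2.82 in aged epidermis. The groups were separate, and the difference was -0.86 ± 0.17 (SE, n = 3 arrays per group, limma adjusted p = 0.122, 1.82-fold), the smallest adjusted p of any Hox gene. It rests on the brighter of a pair of Hoxd11 probes that carry the same accession. The dimmer one read 0.36, 0.23 and 0.29 in young and 0.41, 0.51 and 0.50 in aged epidermis, again without overlap but in the opposite direction, with a difference of 0.18 ± 0.11 (limma adjusted p over probes = 0.405). Both probes were detected on all 6 arrays. Which transcript each probe reads was not settled here, and the direction for Hoxd11 therefore belongs to a probe and not to the gene.

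Hoxa11 had the largest difference of any tested Hox gene. Its probe is printed in 10 spots, whose means were -2.64, -3.49 and -3.01 on the young arrays and -4.00, -4.36 and -5.47 on the aged arrays. The groups did not overlap, and the difference was -1.57 ± 0.42 (SE, n = 3 arrays per group, limma adjusted p = 0.176, 2.96-fold). On each young array 10 of 10 spots were detected. On aged replicate 1 it was 9 of 9 kept spots, on aged replicate 2 it was 7 of 10 and on aged replicate 3 it was 0 of 10. The size of the difference depended on how background was removed, since it was -0.34 with a normexp correction, which adds a constant to every signal, and it was -1.14 without aged replicate 3. Hoxc11, which is expressed in the hindlimb and tail region of the embryo, read 0.75, 0.91 and 0.69 in young and 0.59, 0.36 and 0.32 in aged epidermis, without overlap and with a difference of -0.36 ± 0.13 (limma adjusted p = 0.240).

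Group 10 genes pattern the lumbar spine and hindlimb. Hoxa10, also known from the uterus, read -0.85, -0.88 and -0.68 in young and -1.04, -1.26 and -1.51 in aged epidermis, a difference of -0.46 ± 0.15 (limma adjusted p = 0.217). Hoxd10, which acts in hindlimb motor neurons, read 1.83, 2.19 and 2.12 against 1.40, 1.57 and 1.83, a difference of -0.45 ± 0.17 (adjusted p = 0.243). In both genes every aged value was below every young value, for Hoxd10 with 1.83 as the highest aged and the lowest young value when rounded. Hoxc10, detected on 3 young and 2 aged arrays, differed by -0.48 ± 0.25 with overlap (adjusted p = 0.360).

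Group 9 genes act in the trunk. Hoxb9, which takes part in rib patterning and mammary gland development, read 0.78, 0.71 and 0.63 in young and 0.60, -0.02 and 0.18 in aged epidermis, a difference of -0.46 ± 0.18 without overlap (limma adjusted p = 0.257). Hoxd9 read 2.52, 2.64 and 2.58 against 2.50, 2.36 and 2.51, and although the groups did not overlap the difference was only -0.12 ± 0.11. Hoxa9, known from blood stem cells and leukaemia, read 0.22, 0.54 and 0.41 against 0.20, 0.35 and 0.13 and overlapped, with a difference of -0.16 ± 0.13, and its other probe differed by -0.15. Hoxc9, which directs thoracic motor neurons, was the only tested group 9 gene with a higher aged mean. It read -0.60, -0.53 and -0.61 in young and 0.56, -0.36 and -0.50 in aged epidermis. Its difference of 0.48 ± 0.29 rested on aged replicate 1 and was 0.15 without that array. Hoxc12, a neighbour of Hoxc13 expressed in hair follicles, was the other posterior gene with a higher aged mean. Its values were -3.97, -3.91 and -4.19 in young and -3.64, -3.68 and -3.66 in aged epidermis, close together within the aged group, with a difference of 0.37 ± 0.12 without overlap (limma adjusted p = 0.213). These values lie near background, and with the normexp correction the difference was 0.065.

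**Figure D3:**
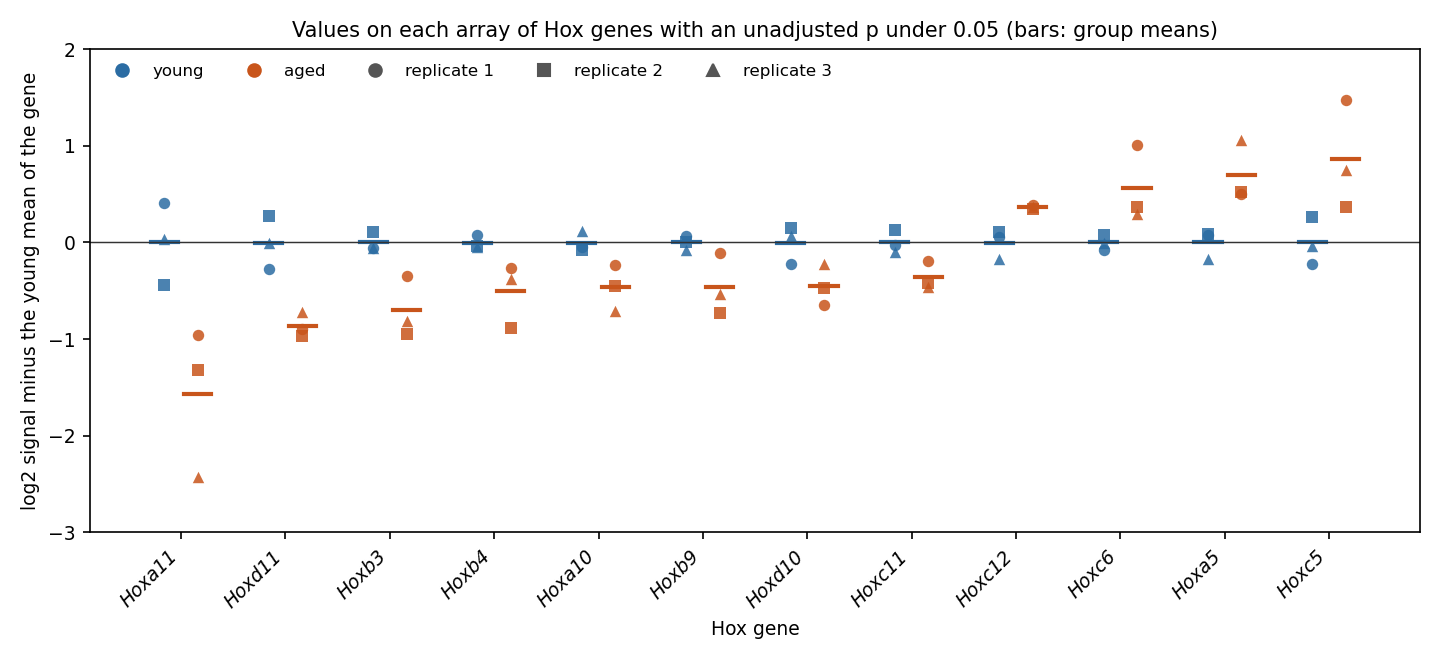
Values on each array of Hox genes at an unadjusted p under 0.05, as log2 signal minus the gene's young mean, young in blue and aged in orange, with a marker shape for each replicate number and a bar at each group mean. The groups are separate in every gene shown, 8 with lower and 4 with higher aged values, Hoxd11 by its brighter probe. Aged replicate 1 is the highest aged array for Hoxc5 and Hoxc6.

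Among central genes, Hoxa5, Hoxc5 and Hoxc6 had higher aged values without overlap at an unadjusted p under 0.05. Hoxa5, which acts in lung development and at the border of neck and thorax, read -2.02, -2.01 and -2.27 in young and -1.60, -1.58 and -1.04 in aged epidermis. The difference was 0.70 ± 0.19 (SE, n = 3 arrays per group, limma adjusted p = 0.180, 1.62-fold), and the groups were separate. Its paralogue Hoxc5 read -3.93, -3.45 and -3.75 against -2.23, -3.35 and -2.96, a difference of 0.86 ± 0.30 (adjusted p = 0.228). With the normexp correction the Hoxc5 difference was 0.31. Hoxc6, a gene of thoracic identity, read -0.84, -0.68 and -0.76 against 0.26, -0.39 and -0.46, a difference of 0.56 ± 0.21 (adjusted p = 0.247). Aged replicate 1 was the highest array for both Hoxc genes, and without it their differences were 0.56 and 0.33. Over the 8 tested Hoxc genes the median deviation was 0.43 on aged replicate 1 and 0.03 and 0.11 on aged replicates 2 and 3.

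The remaining group 5 and 6 genes leaned lower. Hoxb5, which positions the shoulder girdle, read -1.57, -1.14 and -1.34 in young and -1.46, -1.90 and -1.88 in aged epidermis, a difference of -0.40 ± 0.18 with overlap. Hoxa6 read -2.78, -1.87 and -2.48 against -2.79, -2.60 and -2.99 and differed by -0.41 ± 0.25. Hoxb6, a gene of thoracic patterning, read 1.27, 1.74 and 1.66 against 1.35, 1.32 and 1.60 and differed by -0.13 ± 0.17. These 3 genes overlapped between the groups and each difference was near or within the spread of its replicates. The mean difference of a group thus varied between clusters, and in group 5 the Hoxa and Hoxc genes were higher while the Hoxb gene was lower.

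Tested genes of groups 7 and 8 had higher aged means. Hoxa7 read 3.30, 3.40 and 3.42 in young and 3.99, 3.58 and 3.57 in aged epidermis, without overlap and with a difference of 0.34 ± 0.15 (limma adjusted p = 0.296). It was 0.21 without aged replicate 1, the highest array, and 0.17 without both samples numbered 1. Hoxb7 read 1.38, 1.15 and 1.14 against 1.64, 1.37 and 1.63, a difference of 0.32 ± 0.14 with overlap (adjusted p = 0.287). Hoxb8, which in mice is known for a grooming phenotype when lost, read -3.28, -2.75 and -2.31 against -2.23, -2.88 and -2.16 and differed by 0.36 ± 0.31, and by 0.0060 without both samples numbered 1. Hoxd8 had the smallest difference of the tested Hox genes, with 2.84, 2.93 and 2.98 in young and 2.83, 2.90 and 3.05 in aged epidermis, 0.01 ± 0.11 with a 95% interval from -0.26 to 0.29.

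All 4 genes of group 4, which pattern the neck vertebrae, had lower aged means, by unequal amounts. Hoxb4, also used to expand blood stem cells, read 0.33, 0.22 and 0.21 in young and -0.01, -0.63 and -0.12 in aged epidermis, a difference of -0.51 ± 0.18 without overlap (limma adjusted p = 0.240). Hoxd4 read 0.73, 1.13 and 1.24 against -0.32, 0.65 and 1.04 and differed by -0.58 ± 0.36. That difference rested on aged replicate 1 and was -0.19 without it. Hoxa4 read -4.18, -3.85 and -4.25 against -3.93, -4.35 and -4.11, and Hoxc4 read -2.59, -2.49 and -2.51 against -2.06, -2.70 and -3.01. Their differences were -0.04 and -0.06, and under quantile normalization both turned to 0.04.

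Among anterior genes, Hoxb3 was lower in aged epidermis without overlap. This gene, which acts in the hindbrain and in the glands of the pharynx, read -1.76, -1.59 and -1.75 in young and -2.05, -2.65 and -2.51 in aged epidermis. The difference was -0.70 ± 0.18 (SE, n = 3 arrays per group, limma adjusted p = 0.167, 1.63-fold). Its other probe read -2.57, -2.04 and -2.20 against -2.44, -2.83 and -2.79, a difference of -0.42 ± 0.19 in the same direction. Hoxa3, required for the thymus and parathyroid, read -1.02, -0.57 and -0.70 against -0.74, -0.97 and -0.70 and differed by -0.04 ± 0.16. Hoxb2 read 0.26, 0.31 and 0.31 against 0.62, 0.11 and 0.56 and differed by 0.13 ± 0.16, and by 0.039 without aged replicate 1. Hoxa2, which patterns the arches of the embryonic head and was detected on 3 young arrays and 1 aged array, read -4.23, -3.97 and -3.70 against -4.94, -4.52 and -4.04 and differed by -0.53 ± 0.26 with overlap. The groups overlapped in Hoxa3, Hoxb2 and Hoxa2, and none of these was at an unadjusted p under 0.05.

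Settings that treat the aged arrays unequally brought Hox genes past the threshold. With limma's array weights, which give less weight to arrays that deviate from the fit, Hoxa11, Hoxb3, Hoxb4, Hoxb9 and Hoxd11 passed as lower, where 4.0% of all genes passed as lower in aged epidermis. Their differences were -1.40, -0.87, -0.70, -0.61 and -0.97 (limma adjusted p from 0.0272 to 0.0490), for Hoxd11 by its brighter probe. Without aged replicate 1, Hoxb3 alone of the Hox genes passed, with a difference of -0.88 ± 0.13 (limma adjusted p = 0.0247), where 3.76% of all genes passed as lower. Of the non-coding genes described next, Hoxa11os and Hoxb5os also passed as lower with array weights (limma adjusted p = 0.0319 and 0.0275). Without aged replicate 1 they passed too (limma adjusted p = 0.0393 and 0.0312). Gm11538 met the detection filter through its 3 young arrays alone, with 0 aged arrays detected, so its p-values are not given. Without both samples numbered 1, 0 Hox genes passed. The groups of 26 of 32 did not overlap there, but groups of 2 arrays part more easily than groups of 3. The share of all genes without overlap was not computed for that fit, so the count is not read as a result about Hox genes.

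Genes transcribed inside the clusters that do not encode proteins mostly had lower aged means, by unequal amounts. RefSeq lists 32 such genes, of which 8 had a probe and 6 were tested. Aged means were lower for 5 and higher for 1, 3 of the lower ones at an unadjusted p under 0.05 and without overlap. Among all genes 6.3% were lower at that p and 7.48% lower without overlap. Gm11538 is among the 5 and the 3, although it met the detection filter through its young arrays alone. The median difference of the non-coding genes, -0.64, counts it too. Of the others, Gm53, Hoxd3os1 and Haglr differed by only 0.02, -0.08 and -0.12. Hoxa11os, whose span overlaps that of Hoxa11, read -0.29, -0.77 and -0.14 in young and -1.48, -1.51 and -1.70 in aged epidermis, a difference of -1.16 ± 0.19 (limma adjusted p = 0.107). Hoxb5os, whose span overlaps those of Hoxb5 and Hoxb6, read 0.07, -0.32 and -0.59 against -1.02, -1.79 and -1.52, a difference of -1.17 ± 0.26 (adjusted p = 0.139). Both were separate between the groups on arrays that detected them throughout. For Hoxb5os the difference was larger than the -0.40 and -0.13 of the coding genes it overlaps, and for Hoxa11os it had the sign of Hoxa11. The strand that each probe reads is not given in the sources used here, so signal of an antisense gene and of its partner may mix.

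Gm11538, a long non-coding RNA gene next to Hoxb13, was detected on 3 young and 0 aged arrays. It read -3.22, -3.52 and -3.54 in young and -5.12, -6.59 and -6.40 in aged epidermis, and was at least 2.56-fold lower. Its aged values are background, so no p-value is given. With the normexp correction the difference was -0.37. Its neighbour Hoxb13 was likewise detected on no aged array. The other tested genes of this kind, Gm53 next to Hoxb9 and the genes Hoxd3os1 and Haglr, differed by 0.02, -0.08 and -0.12. Hoxd3, which Hoxd3os1 overlaps and which 3 young and 2 aged arrays detected, had the widest spread between aged arrays of the tested Hox genes, with values of -3.82, -3.38 and -3.75 in young and -6.00, -4.10 and -2.98 in aged epidermis.

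**Figure D4:**
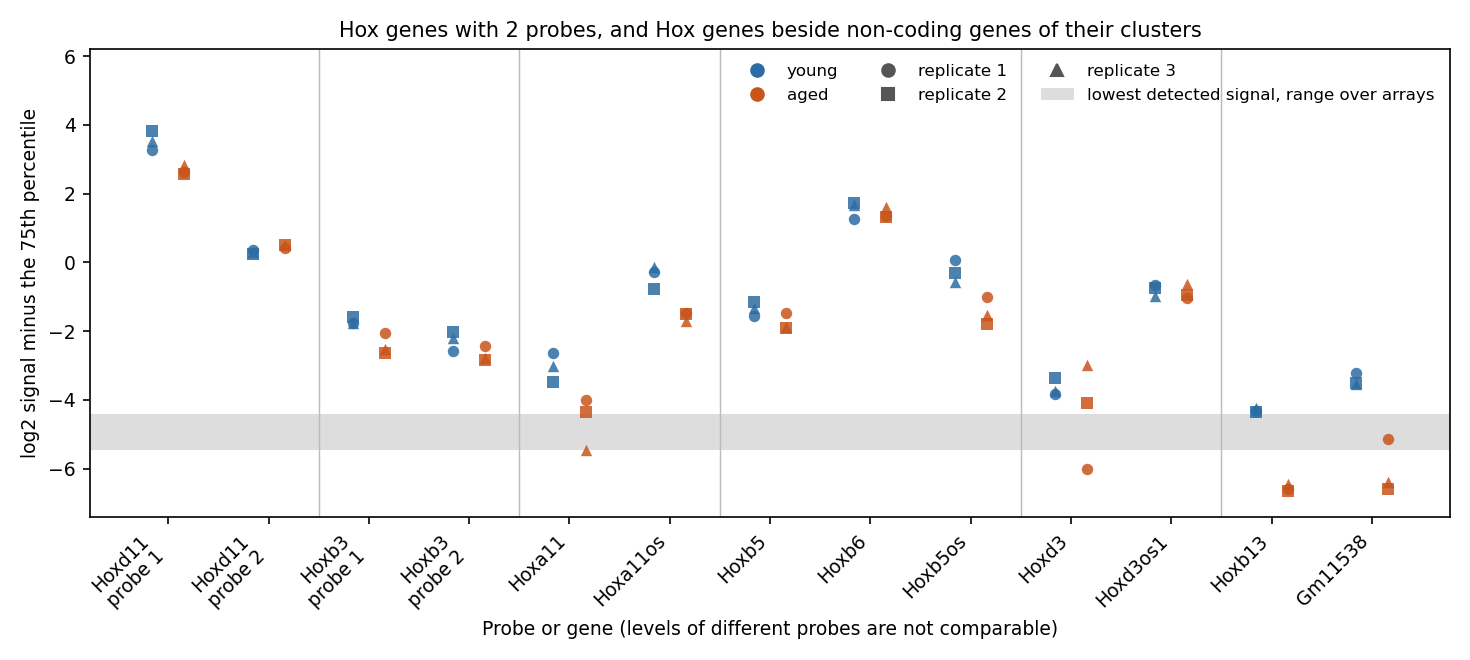
Values on each array (log2 signal relative to the array's 75th percentile) of both probes of Hoxd11 and of Hoxb3, and of Hox genes beside non-coding genes of the same cluster region, young in blue and aged in orange, with a marker shape for each replicate number. The grey band is the range over arrays of the lowest signal that counted as detected. The Hoxd11 probes part in opposite directions, Hoxa11os and Hoxb5os are lower on all 3 aged arrays, and Hoxb13 and Gm11538 lie in the band or below it on the aged arrays.

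Protein-coding genes just outside the clusters did not share this direction. Of the 2 nearest on each side of each cluster, 16 in all, 15 had a probe and 10 were tested. Aged means were lower for 1 and higher for 9, with a median difference of 0.21, where 8996 of all 14136 genes tested were higher. Skap2 beside the Hoxa cluster, an adaptor of immune signalling, read 2.43, 2.58 and 2.46 in young and 3.03, 2.72 and 2.97 in aged epidermis, a difference of 0.42 ± 0.13 (limma adjusted p = 0.202). Smug1 and Atp5g2 beside Hoxc, a DNA repair enzyme and a subunit of ATP synthase, differed by 0.35 and 0.29. None of the 10 passed the threshold. Evx1 and Evx2, homeobox genes at the posterior ends of Hoxa and Hoxd, were detected on 0 arrays.

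Partners and regulators of Hox genes showed small differences. TALE homeodomain proteins bind DNA together with HOX proteins, and of 8 tested 4 were lower and 4 higher, 0 at an unadjusted p under 0.05, with a median of 0.01. Meis1 differed by 0.48 ± 0.27, Pbx3 by 0.36 ± 0.21 and Meis3 by -0.37 ± 0.20. Polycomb proteins keep Hox genes silent, and of 13 tested 3 were lower and 10 higher, with a median of 0.15. At an unadjusted p under 0.05 there were 2 higher, against 11.4% of all genes. Cbx8, which reads a repressive histone mark, differed by 0.44 ± 0.11 (limma adjusted p = 0.170), Rnf2, a ubiquitin ligase, by 0.27 ± 0.10 and Bmi1 by 0.38 ± 0.17. Trithorax and MLL complexes and the H3K27 demethylases counter Polycomb, and of 9 tested 2 were lower and 7 higher, 0 at an unadjusted p under 0.05, with a median of 0.14. Wdr5 differed by 0.23 ± 0.10, Dpy30 by 0.16 ± 0.11 and Rbbp5 by 0.16 ± 0.11. Against the median of 0.09 over all tested genes, these medians stand close to the array as a whole.

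Retinoic acid switches on anterior Hox genes in the embryo. Of 13 tested genes of its pathway 6 were lower and 7 higher, 0 at an unadjusted p under 0.05, with a median of 0.07. Aldh1a3, which makes retinoic acid, read -0.08, -0.54 and -0.68 in young and -0.71, -1.38 and -3.24 in aged epidermis and differed by -1.34 ± 0.64, and the retinoid genes Dhrs3 and Rxrb differed by 0.27 and 0.26. Caudal, ParaHox and other posterior or limb identity genes were mostly undetected, with 11 of 14 detected on no array. Emx2, a homeobox gene of the brain and urogenital tract, was the only member tested. It read -2.59, -3.44 and -3.38 in young and -2.44, -2.51 and -2.00 in aged epidermis, without overlap and with a difference of 0.82 ± 0.27 (limma adjusted p = 0.216).

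Markers of other cell types differed between the groups beside these Hox values. For the list of hair shaft and root sheath genes the summed level was 1452 to 2317 in young and 27.9 to 1210 in aged epidermis, in multiples of the 75th percentile signal, with none of its 14 measured genes at background. Melanocyte markers were lower for 8 of 8, with a median of -1.30 and a summed level of 15.4 to 19.4 in young and 5.20 to 14.0 in aged epidermis. All 8 were detected on every young array, but Tyr on only 1 aged array and Kit on 2. Of 11 dermal fibroblast markers 8 were tested, 3 lower and 5 higher. The 3 lower ones were the collagens Col1a1, Col1a2 and Col3a1. The summed level of the list was 13.8 to 15.6 in young and 17.2 to 29.2 in aged epidermis, while Pdgfra, Lum and Twist2 were detected on no array. Few genes led that sum, Dcn at 4.34 on aged replicate 1, and Postn and Thy1 at 3.55 and 3.17 on aged replicate 2. Thy1 also stands in the T cell list. Basal keratinocyte markers had a median difference of 0.26, suprabasal markers 0.02, T cell markers 0.07 and sebaceous gland markers 0.23. Endothelial, Merkel cell, muscle and Schwann cell and nerve markers had medians of -0.22, -0.77, -0.68 and -0.48, with 2 genes tested in each list. The Merkel cell genes were Krt8 at 0.03 and Krt18 at -1.56. Langerhans cell and macrophage markers had a median of -1.79, with 4 lower and 1 higher, Cd68, by 0.62 without overlap. Outside the dermal fibroblast list, 0 members of these lists passed the threshold. In the dermal fibroblast list Col1a1 and Col3a1 passed as lower. The Langerhans cell and macrophage markers deviated from their young means by a median of -4.05, -1.18 and -0.01 on aged replicates 1 to 3. Col1a1, a collagen of the dermis, read -1.87, -1.41 and -1.31 in young and -4.34, -4.56 and -4.54 in aged epidermis, a difference of -2.95 ± 0.18 (limma adjusted p = 0.0283). Col3a1, which 0 aged arrays detected, was lower by a bound of at least 5.14-fold. It passed the threshold too, but met the detection filter through its young arrays alone. Hox genes are known to be active in fibroblasts and hair follicles as well as in epidermal cells. The part of these cell types in the Hox differences was not tested.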

How the data were processed

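Total RNA of 6 tail epidermis samples, amplified and labelled with Cy3, was measured on Agilent arrays of 1 colour, per the labels' protocols. Scanner output came from Feature Extraction 11.5.1.1 and from 1 slide scanned once, per the file headers. The deposited processed signal is a linear intensity for each spot, from which background and a spatial trend had been removed, with no scaling from array to array. The deposited median signals of spot and background are unprocessed intensity values, per the file headers. The authors' table of log2 values for 33870 probes tracked the scanner values, scaled to the 75th percentile and centred on each probe's median, with r of at least 0.9999 per array. Its column medians ran from -0.02 to 0.07, and the base of its centring is known only from that match.

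Values were log2 of the processed signal over each array's 75th percentile. Control spots and the 116 to 170 outlier spots of an array were dropped, and the remaining spots averaged by probe. A probe counted as detected where at least 50% of its kept spots were well above background, and a gene where any of its probes was. Of 55681 probes, 28331 received a gene name by RefSeq accession from a GRCm38.p6 table and 27350 stayed unnamed. The arrays were designed on mm9, so coordinates are given for RefSeq promoter windows alone. Probes detected on at least 3 of 6 arrays were tested, the brightest standing for its gene, with limma 3.58.1 in R 4.3.3 (two-sided, from lmFit and eBayes with age group as the only term). P-values were adjusted by Benjamini-Hochberg over 25068 features and called under 0.05. The procedure was tested on simulated data. "At least" marks a bound against the lowest detected signal.

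The Hox genes and all lists were chosen with earlier results of these data known. Named were all Hox genes detected on every array, all at an unadjusted p under 0.05, the others by detection, and of each list the members past the threshold and up to 3 more by unadjusted p. Of these, 1 Hox gene is counted but not reported here by name. Samples of the same number in both groups deviated together, with r of 0.41, 0.26 and 0.10 across features, though no label says what a number stands for, and replicate 2 of the young group also correlated with aged replicate 3 at 0.29. The fit with the replicate number as a block gave 10 Hox genes lower and 3 higher at an unadjusted p under 0.05. The mean signal column that the planned normexp alternative named was not used, and the median signal stood in for it.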

Additional observations from a re-analysis of the deposited data

How the results depend on the processing

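Of 29 named Hox genes, 22 kept their direction under all alternatives run, and 22 of 524 comparisons, in 7 genes, reversed. For Hoxa3 median scaling gave 0.034, and leaving out 1 array gave -0.17 to 0.056. For Hoxa4 normexp gave 0.019, quantile normalization 0.039, median scaling 0.036, slide row as a block 0.11, and leaving out 1 array -0.14 to 0.083. Array weights gave -0.060 for Hoxb2 and -0.050 for Hoxb8, where slide row gave -0.12. For Hoxc4 normexp gave 0.019, quantile normalization 0.036, median scaling 0.018, and leaving out 1 array -0.32 to 0.15. For Hoxd8 quantile normalization gave -0.070, array weights -0.013, slide row -0.049, and leaving out 1 array -0.045 to 0.061. Hoxd11's other probe, an alternative chosen after seeing the data, gave 0.18. All genes past the threshold, 11 in the main setting, were 7 with quantile normalization, 21 with median scaling, 3 with detection on all 6 arrays, 2 with detection on at least 1 array, 1 with no filter, 1108 with array weights, 0 with the replicate block or slide row, and 215 without both samples numbered 1. Leaving out 1 array gave 0 to 809, the highest without aged replicate 1. Hox genes past the threshold were 1 with detection on at least 1 array, 6 with array weights and 0 to 1 with 1 array left out. Of the 8 lower at an unadjusted p under 0.05, median scaling gave 4, slide row 1, and leaving out 1 array 3 to 9. Of the 5 higher, the replicate block gave 3, slide row 2, the fit without both samples numbered 1 gave 2, and leaving out 1 array 1 to 5. Groups without overlap, 16 before, were 26 without both samples numbered 1 and 16 to 24 with 1 array left out. Smaller groups part more easily, and the shares of all genes were not computed for these fits. The median Hox difference ran from -0.26 to -0.088 with 1 array left out. The replicate block changed no other Hox call. Slide row 1 held young replicates 1 and 2 alone, so that fit rests on young replicate 3 for the comparison. The causes were not tested. Normexp used median instead of mean signals. Signal near background limits Hoxa2, Hoxa4, Hoxa11, Hoxb13, Hoxc5, Hoxc8, Hoxc10, Hoxc12, Hoxd3 and Gm11538.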
